A study of Mus musculus with 8 samples.

Results

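The clustered protocadherins are cell surface adhesion proteins encoded by 3 neighbouring arrays of genes on mouse chromosome 18, named alpha, beta and gamma. Members were chosen by name, as the protein-coding genes whose symbol begins with Pcdha, Pcdhb or Pcdhg followed by the name of a cluster isoform. This gave 57 genes, of which 14 were alpha, 22 beta and 21 gamma, among the 47729 genes counted in neural stem cells (NSCs). All 57 were also found among the 40562 genes counted in astrocytes. Of the 58 genes named for the clusters, Pcdhgb8 was left out because it is annotated as a polymorphic pseudogene. On GRCm38, the build used for the NSC files, the members lie on the plus strand between positions 36930184 and 37841873. The annotation gives the symbol Pcdha11 to 2 identifiers, and ENSMUSG00000007440, which starts 117 bases from the RefSeq start of Pcdha10, is called Pcdha10 here.

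Each alpha or gamma member has its own promoter and its own large first exon, which encodes the extracellular and transmembrane parts and is spliced to constant exons that the whole cluster shares, whereas a beta member is a single-exon gene with no constant part. The extracellular parts bind the same isoforms on a facing cell. Neurons are known to use only a few of the alternate promoters each, in a choice that involves CTCF, cohesin and promoter methylation, while the C-type members at the end of the alpha and gamma clusters are less subject to this choice. In astrocytes, gamma protocadherins are known for contacts with neurons.

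RNA was sequenced from 8 libraries of cultured cells of C57BL/6 mice, labelled as 10 weeks old. The knock-in S89G-DMP1 changes dentin matrix protein 1 (DMP1) in all cells of the animal, removing its glycosylation site, and wild type (WT) C57BL/6 mice are the controls. NSCs, labelled as from the sub-ventrical zone, were grown as neurospheres in DMEM/F12 with N2 and are represented by 3 S89G-DMP1 and 3 WT libraries. Primary cortical astrocytes, which the study's methods take from 3-month-old mice of both sexes, were grown in DMEM with fetal bovine serum and are represented by 1 library of each genotype. The knock-in was made in embryonic stem cells with a selection cassette that was then removed by crossing with an FLP line. The labels call the NSC libraries triplicates and do not say whether they came from separate mice or cultures, so the p-values measure the spread between these libraries, which may be technical.

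Between 2354615 and 2588130 reads were counted on genes per NSC library, and 13016924 and 14008670 in the S89G-DMP1 and WT astrocyte libraries. Dmp1 itself was counted 6, 3 and 5 times in the S89G-DMP1 NSC libraries and 18, 21 and 16 times in the WT ones (log2 fold change -1.90 ± 0.38, SE, adjusted p = 0.00013). In astrocytes the counts were 119 in S89G-DMP1 and 2 in WT, so that both tables gave a difference in Dmp1, in opposite directions. The WT astrocyte library held 8 reads of Aqp4 and 8 of Slc1a3, which mark astrocytes, against 4051 and 3877 in the S89G-DMP1 library. Summed over 10 astrocyte markers it reached 179 CPM (counts scaled to library size), against 1293 in the S89G-DMP1 library. Of these 10, 8 were higher and 1 was lower in S89G-DMP1 by 2-fold or more, where 17.3% of all genes counted were higher and 12.8% lower. The 10 neural stem cell markers summed to 3529 CPM in WT and 6300 in S89G-DMP1, and the 10 neuron markers to 98.4 and 302. Summed over 10 fibroblast and meningeal markers the WT library reached 7622 CPM, against 2149 in the S89G-DMP1 library. Xist was counted 12172 times in the WT and 74 times in the S89G-DMP1 astrocyte library, and the Y-linked Ddx3y 0 and 1277 times, so sex, cell makeup and genotype cannot be told apart in the astrocyte comparison. Fewer cells of a type and less RNA per cell also cannot be told apart in such bulk samples.

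The counting of overlapping genes bears on these clusters. Alpha members share between 48.6% and 93.0% of their exon bases with other annotated genes (median 53.6%) and gamma members between 31.5% and 100% (median 45.2%), mostly through the constant exons, whereas 19 of the 22 beta members share none. Pcdhga10 has 0 bases of its own once an antisense gene is taken into account, and it had 0 or 1 counts in each NSC library and 0 in both astrocyte libraries. Pcdha4, with 404 bases of its own, had 0 in all 8 libraries. The library kit does not mark strand, so reads of a member and of an antisense gene over it cannot be told apart. Levels of different members are therefore compared below as TMM-scaled CPM per kilobase of unshared exon, for the 55 members with at least 1000 such bases.

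Pcdhgc3, a C-type gamma member known to bind Axin1 and to limit Wnt signaling, had the highest level of all these members in every group. In NSCs its level was 151 ± 5.18 CPM per kilobase in WT and 141 ± 10.96 in S89G-DMP1 (SD, n = 3). The second member in WT NSCs, the alternate Pcdhga3, stood at 10.2 ± 1.33, and the second in S89G-DMP1 NSCs, the C-type Pcdhac2, at 8.15 ± 0.457. Below Pcdhgc3 the order in WT NSCs was Pcdhga3, Pcdhgc4 (8.72 ± 1.38), Pcdhga11 (6.90 ± 2.32), Pcdhac2 (5.83 ± 0.737) and Pcdhgc5 (5.43 ± 0.534), and each differed from its neighbour in this order by less than the sum of their SDs. Pcdhb20 (5.26 ± 1.24) led the beta members. Alternate alpha members were near the floor, since the highest of them by this level, Pcdha12, had between 1.203 and 2.396 CPM in the 6 NSC libraries.

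The astrocyte libraries placed other members behind Pcdhgc3. Its level was 43.5 CPM per kilobase in WT and 51.7 in S89G-DMP1 astrocytes. It was followed in WT by Pcdhgb2 (8.17), Pcdhgb4 (7.55) and Pcdhgc5 (6.33), and in S89G-DMP1 by Pcdhgc5 (11.8), Pcdhga7 (6.15) and Pcdhga2 (5.94). Pcdhgc4, a C-type member known for the survival of neurons, held rank 3 in both NSC groups but rank 29 in WT and rank 18 in S89G-DMP1 astrocytes. Across the 55 members the Spearman correlation of levels was 0.92 between the genotypes in NSCs, 0.90 between those in astrocytes, 0.73 between WT NSCs and WT astrocytes, and 0.88 between the S89G-DMP1 cell types. These correlations describe members that share a library and a length measure, and the 2 cell types were counted and scaled in separate tables.

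**Figure D1:**
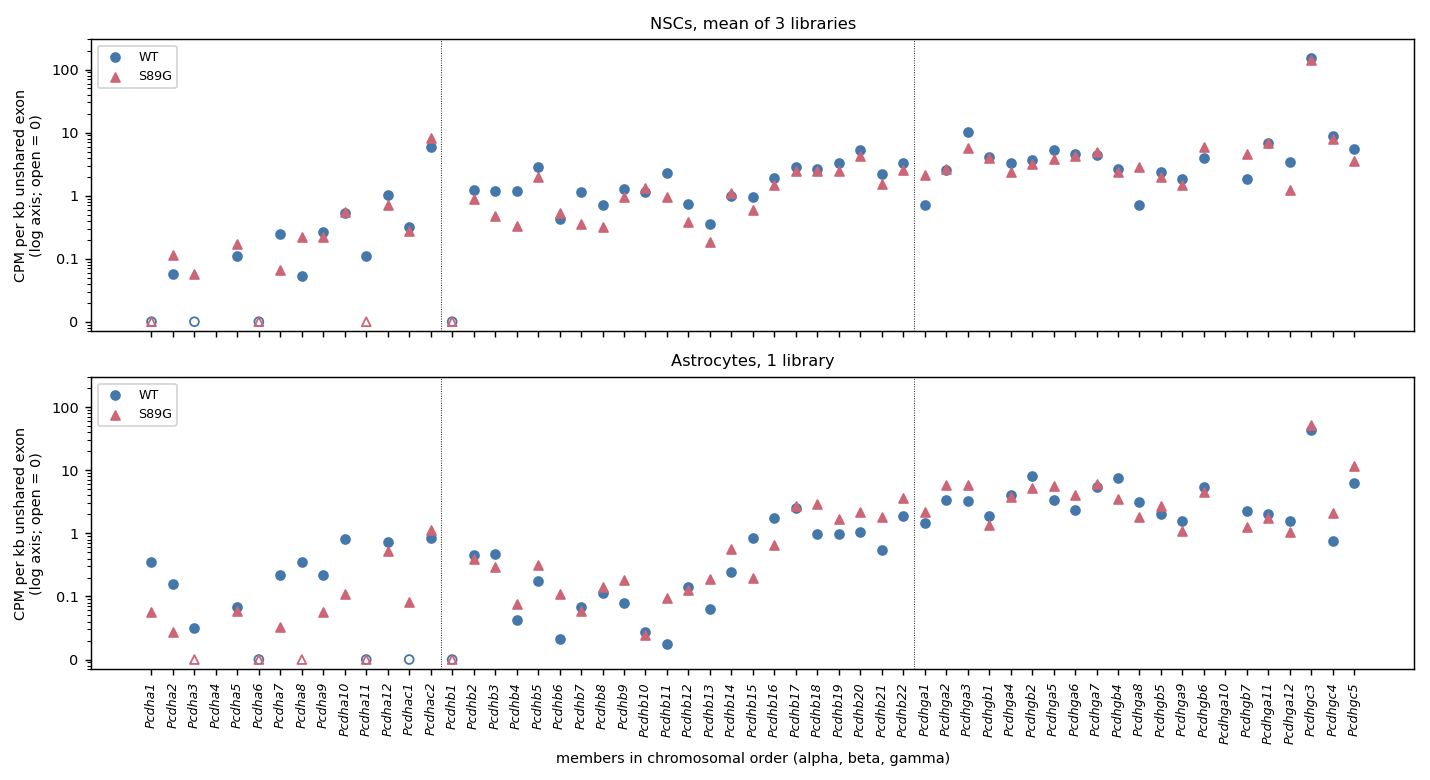
Level of each member in TMM-scaled CPM per kilobase of unshared exon (log axis, open symbols at the bottom are 0) against its place along the clusters, in NSCs (top, mean of 3 libraries) and astrocytes (bottom, 1 library), with WT as circles and S89G-DMP1 as triangles. Pcdhgc3 lies far above the others in all 4 groups, most alternate alpha members and, in astrocytes, many beta members lie below 1, and Pcdha4 and Pcdhga10, with under 1000 unshared bases, have no symbol.

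Summed by cluster, beta expression was lower in S89G-DMP1 NSCs and alpha expression was higher, by way of Pcdhac2. The beta sums were 133, 114 and 131 CPM in the S89G-DMP1 libraries and 173, 167 and 169 CPM in WT, a log2 ratio of means of -0.43 ± 0.07 (SE). All 3 S89G-DMP1 libraries lay below all 3 WT libraries. The alpha sums were 30.7, 28.7 and 31.3 CPM against 21.1, 26.8 and 23.2 CPM (0.35 ± 0.11), again without overlap but in the other direction. Without Pcdhac2 the alpha sum was 5.55 ± 0.481 CPM in S89G-DMP1 and 6.02 ± 0.838 in WT (SD, n = 3), and the libraries overlapped. For gamma the sums were 476, 464 and 415 CPM against 509, 492 and 475 CPM (-0.12 ± 0.07), and the groups overlapped by 1 library. Within gamma, the 12 A-type members summed to 89.99 ± 8.64 CPM against 108 ± 6.66, with every S89G-DMP1 library below WT, while the 6 B-type members summed to 60.3 ± 8.44 against 54.9 ± 0.990 and overlapped. On the deposited TPM values the beta difference was -0.12 and the libraries overlapped, with S89G-DMP1 replicate 3 above all 3 WT libraries. No p is given for a sum over members.

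**Figure D2:**
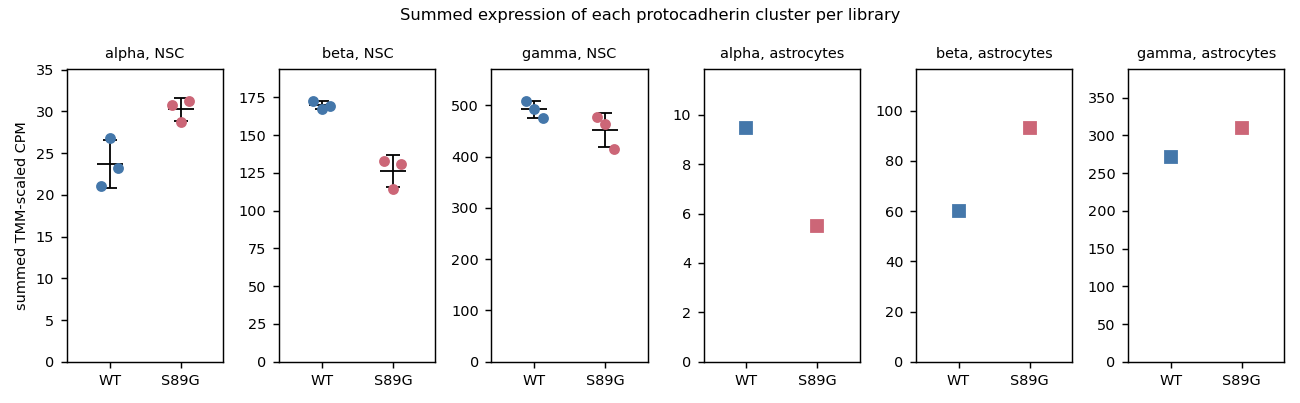
Summed TMM-scaled CPM of the alpha, beta and gamma members per library, in NSCs (circles, with the mean and SD of 3 libraries) and in astrocytes (squares, 1 library per genotype), each axis starting at 0. The beta sums of S89G-DMP1 NSCs (114 to 133 CPM) lie below those of WT NSCs (167 to 173 CPM), whereas in astrocytes the S89G-DMP1 library is the higher one for beta and the lower one for alpha.

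Of the 57 members, 30 had enough counts to be tested in NSCs with edgeR's quasi-likelihood test across 11194 genes, namely 1 alpha, 10 beta and 19 gamma members. Of the other 27 members, 4 had no count in any NSC library (Pcdha1, Pcdha4, Pcdha6 and Pcdhb1). At an adjusted p under 0.05, 4 of the 30 rose and 4 fell, where 7.08% of all tested genes rose and 8.76% fell, or 15.8% in either direction. The members called therefore make up 13.3% in each direction and 26.7% in all. The filter on low counts let 2 of the 30 pass with all S89G-DMP1 but no WT library at its minimum (Pcdhga1 and Pcdhgb7), and such members had to differ to be tested. Both are among the 4 that rose, so the 13.3% that rose rests in part on the filter. Another 3, Pcdhb11 among them, passed with all WT but not all S89G-DMP1 libraries at the minimum. Among the 30, 23 had a log2 fold change below 0 and 7 above it, with a median of -0.23 where that of all genes was 0.00. All 3 S89G-DMP1 libraries lay below all 3 WT libraries for 8 of the 30 (26.7%, against 16.0% of all tested genes) and above for 3 (10%, against 14.8%).

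Among the 30 tested members, the alternate gamma members gave the changes of largest size, and they went both ways. Pcdhga12 fell from 14.7, 13.6 and 13.98 CPM in the WT libraries to 5.90, 4.28 and 4.81 CPM in S89G-DMP1, a log2 fold change of -1.49 ± 0.26 (SE, adjusted p = 8.6e-06). Pcdhga1, the first gamma gene along the chromosome, rose from 1.26, 3.11 and 1.598 CPM to 5.90, 7.28 and 5.21 CPM (1.58 ± 0.40, adjusted p = 0.0027). For both genes every library of one genotype lay beyond every library of the other. No WT library of Pcdhga1 reached the minimum of the filter, however, so it had to differ to be tested. Its separation was partly fixed by that. Pcdhgb7, which lies 2 tested genes before Pcdhga12, rose from 3.79, 3.88 and 2.396 CPM to 8.85, 7.28 and 9.23 CPM (1.32 ± 0.32, adjusted p = 0.0017). Pcdhga3 fell from 29.5, 27.6 and 22.8 CPM to 14.3, 16.7 and 14.04 CPM (-0.82 ± 0.17, adjusted p = 0.00022). Neither gene's libraries overlapped between the genotypes. Pcdhgb7, like Pcdhga1, had no WT library at the minimum of the filter and had to differ to be tested. Pcdhgb6 had 12.2, 10.1 and 7.59 CPM in WT and 20.2, 11.6 and 14.4 CPM in S89G-DMP1 (0.63 ± 0.22, adjusted p = 0.042). Its groups overlapped, and its call was lost in 4 of 6 fits to 5 of the libraries. The call of Pcdhgb6 was lost without S89G-DMP1 replicate 1 (log2 fold change 0.39, adjusted p = 0.35), S89G-DMP1 replicate 3 (0.68, 0.067), WT replicate 2 (0.64, 0.088) or WT replicate 3 (0.47, 0.22).

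**Figure D3:**
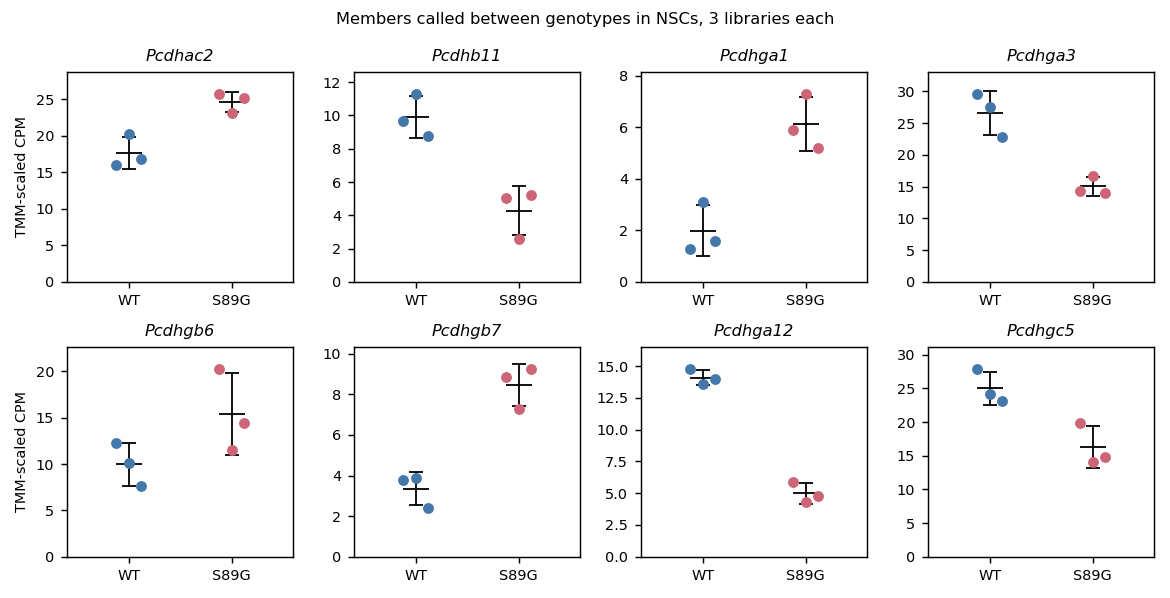
TMM-scaled CPM of the 8 members called between the genotypes in NSCs, per library (points) with the mean and SD of 3 libraries (black), each axis starting at 0. Pcdhgb6 is the one panel in which the groups overlap, with a WT library at 12.2 CPM above an S89G-DMP1 library at 11.6 CPM.

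The other tested alternate gamma members were not called. Pcdhga4 was at 5.22 ± 0.513 CPM in WT and 3.75 ± 0.472 in S89G-DMP1 (SD, n = 3), without overlap (log2 fold change -0.48 ± 0.35, SE, adjusted p = 0.40), and Pcdhga5 at 13.6 ± 3.34 and 9.76 ± 2.33 CPM, with overlap (-0.49 ± 0.23, adjusted p = 0.14). Both were named after their values were seen. Pcdhga7 was at 11.2 ± 1.35 CPM in WT and 12.7 ± 2.30 in S89G-DMP1 (SD, n = 3), Pcdhga11 at 8.66 ± 2.91 and 8.66 ± 2.66, Pcdhga2 at 6.62 ± 1.70 and 6.76 ± 1.79, Pcdhgb2 at 10.3 ± 2.75 and 8.61 ± 1.70, and Pcdhgb4 at 9.65 ± 0.769 and 8.50 ± 1.65. The difference of each of these 5 was within the sum of the SDs. Pcdhga8 did not pass the filter, with 6, 3 and 2 counts in WT and 9, 20 and 14 in S89G-DMP1 libraries. In a fit with no filter, where 7.8% of 21433 genes were called, it rose by a log2 fold change of 1.98 (adjusted p = 0.00015). It was named after its values were seen.

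Among the C-type members, Pcdhac2 rose and Pcdhgc5 fell. Pcdhac2, known for the spacing of serotonergic axons, had 16.0, 20.2 and 16.8 CPM in WT and 25.7, 23.1 and 25.3 CPM in S89G-DMP1 libraries (log2 fold change 0.48 ± 0.16, SE, adjusted p = 0.035). The libraries did not overlap, but leaving out 1 library ended the call in 4 of 6 fits, namely S89G-DMP1 replicate 1 (0.45, adjusted p = 0.10), S89G-DMP1 replicate 3 (0.46, 0.099), WT replicate 1 (0.42, 0.12) or WT replicate 3 (0.44, 0.11). Pcdhgc5, known to associate with GABA-A receptors, had 27.8, 24.1 and 23.2 CPM in WT and 19.8, 14.1 and 14.8 CPM in S89G-DMP1 libraries (-0.62 ± 0.17, adjusted p = 0.0066), without overlap. Without S89G-DMP1 replicate 2 its log2 fold change was -0.53 and its adjusted p 0.054. Pcdhgc3 had 285, 270 and 267 CPM in WT and 268, 270 and 235 CPM in S89G-DMP1 libraries (-0.09 ± 0.06, adjusted p = 0.36), and its groups overlapped. Pcdhgc4 had 35.8, 27.97 and 27.2 CPM against 31.2, 29.1 and 22.5 CPM (-0.14 ± 0.15, adjusted p = 0.61), with overlap as well. Pcdhac1 was counted between 1 and 4 times per library and was not tested.

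The beta members mostly had lower means in S89G-DMP1 NSCs, but 1 passed the test. Of the 21 beta members with any count, 18 had a lower and 3 a higher mean in S89G-DMP1. Of the 10 tested, 9 were lower, with a median log2 fold change of -0.38, and 4 had all S89G-DMP1 libraries below all WT libraries, as did 16.0% of all tested genes. Pcdhb11 fell from 9.69, 11.3 and 8.79 CPM in WT to 5.05, 2.57 and 5.21 CPM in S89G-DMP1 (-1.197 ± 0.30, adjusted p = 0.0021), without overlap. The other tested beta members without overlap were Pcdhb19, Pcdhb21 and Pcdhb22, with log2 fold changes of -0.42 ± 0.17, -0.55 ± 0.27 and -0.37 ± 0.18 and adjusted p of 0.083, 0.16 and 0.15. On the deposited TPM the uncalled differences of Pcdhb18, Pcdhb20 and Pcdhb21 turned positive, where Pcdhb21 is listed at 0 in 5 of the 6 libraries. Pcdhb20, the beta member of the highest level, had 23.2, 18.6 and 14.4 CPM in WT and 17.3, 14.6 and 13.2 CPM in S89G-DMP1, and its libraries overlapped (adjusted p = 0.29). Pcdhb3, Pcdhb4 and Pcdhb7 were below the filter with all S89G-DMP1 libraries under all WT libraries. With no filter Pcdhb4 fell by 1.78 on the log2 scale (adjusted p = 0.0054), with 13, 7 and 13 counts in WT and 2, 3 and 4 in S89G-DMP1, and Pcdhb7 fell by 1.64 (adjusted p = 0.017). These 3 were named after their values were seen, as were Pcdhb19 and Pcdhb22.

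**Figure D4:**
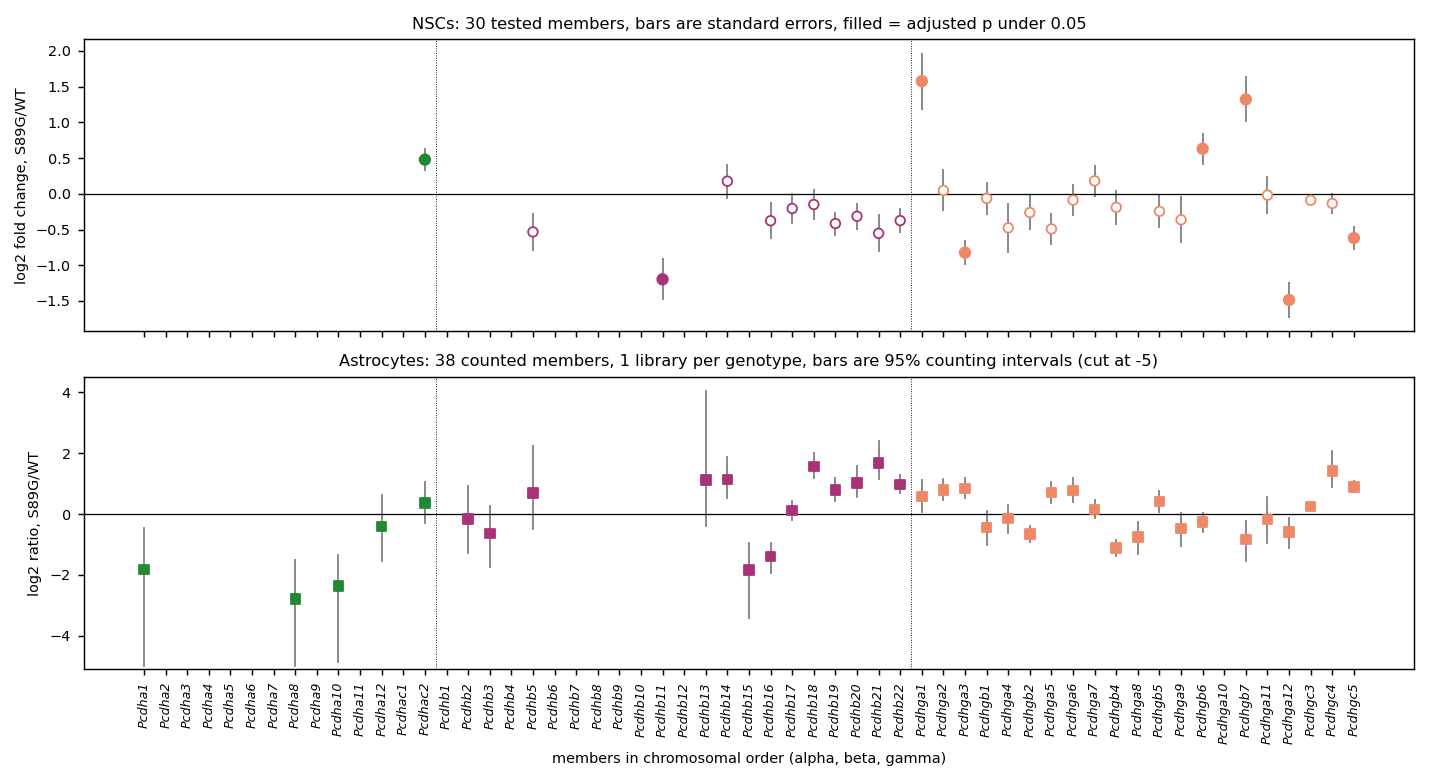
Change between S89G-DMP1 and WT of each member by its place along the clusters. In NSCs (top) points are log2 fold changes of the 30 tested members with their SE, filled at an adjusted p under 0.05, and in astrocytes (bottom) squares are log2 ratios of the 38 members counted 10 or more times in 1 of the 2 libraries, drawn with 95% intervals of counting error. In NSCs 9 of 10 beta points lie below 0, and in astrocytes 9 of 13 lie above it.

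Pcdhb11, Pcdhga1, Pcdhga3, Pcdhgb7 and Pcdhga12 stayed called in all 6 fits that lacked a library. Of these, Pcdhb11, Pcdhga1 and Pcdhgb7 dropped out of the test when at least 10 counts were asked of every library. Staying called does not lift the limit that the filter sets for Pcdhga1 and Pcdhgb7. DESeq2 called Pcdhga3 and Pcdhga12 among the 8, with adjusted p of 0.080 for Pcdhgb7, 0.089 for Pcdhb11, 0.16 for Pcdhgc5, 0.33 for Pcdhac2 and 0.37 for Pcdhgb6 and none for Pcdhga1, and limma on the deposited TPM called 0 of 30.

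Cell type markers also differed between the NSC groups. Over 10 astrocyte markers the sum was 2350 to 2390 CPM in S89G-DMP1 and 1805 to 1849 in WT NSC libraries, with 4 of the 8 tested called higher and none lower, where 7.08% of all tested genes rose and 8.76% fell. The 10 neural stem cell markers summed to 7507 to 7765 CPM in S89G-DMP1 and 7350 to 7661 in WT, with 3 of 9 called higher, and none of them was at 0 in all 6 libraries. Over 10 neuron markers the sums were 1221 to 1241 and 1187 to 1333 CPM, although Syt1 among them fell by 3.004 on the log2 scale (adjusted p = 1.3e-23). Of 6 tested oligodendrocyte lineage markers 2 were called lower, with sums of 3843 to 4031 CPM in S89G-DMP1 and 3758 to 4042 in WT. Endothelial markers summed to 5.99 to 13.1 CPM in S89G-DMP1 and 2.11 to 5.44 in WT, and the 1 tested was called higher (log2 fold change 1.79). Fibroblast and meningeal markers stayed between 31.3 and 45.1 CPM in the 6 libraries, with Col1a2, Dcn and Lum at 0, and microglial markers between 2.81 and 7.16 CPM, with Csf1r, Cx3cr1, Itgam, Ptprc and Tmem119 at 0. The part of these cell type markers, Syt1 included, in the protocadherin differences was not tested.

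The makeup of each cluster is a measure that does not depend on the scaling of libraries. Pcdhgc3 took 57.0 ± 0.994% of the counted gamma reads in S89G-DMP1 NSCs and 55.7 ± 0.680% in WT (SD, n = 3), with the 3 libraries of S89G-DMP1 (56.3%, 58.2% and 56.6%) just above those of WT (56.0%, 54.9% and 56.2%). Pcdhgc5 took 3.59 ± 0.557% against 5.08 ± 0.335%, without overlap. Pcdhac2 took 81.6 ± 1.66% of alpha reads in S89G-DMP1 and 74.6 ± 1.91% in WT NSCs, also without overlap, but on the deposited TPM the direction turned, with means of 62.2% and 66.2%. In astrocytes Pcdhgc3 took 30.4% of gamma reads in S89G-DMP1 (95% interval 29.0% to 31.7%, exact Clopper-Pearson) and 29.3% in WT (27.7% to 30.8%), intervals that overlap. Pcdhgc5 took 17.5% (16.4% to 18.6%) against 10.8% (9.73% to 11.8%), and Pcdhac2 took 62.0% of alpha reads (50.4% to 72.7%) against 27.5% (19.8% to 36.4%). These intervals, like all those for the astrocytes, cover counting error only.

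**Figure D5:**
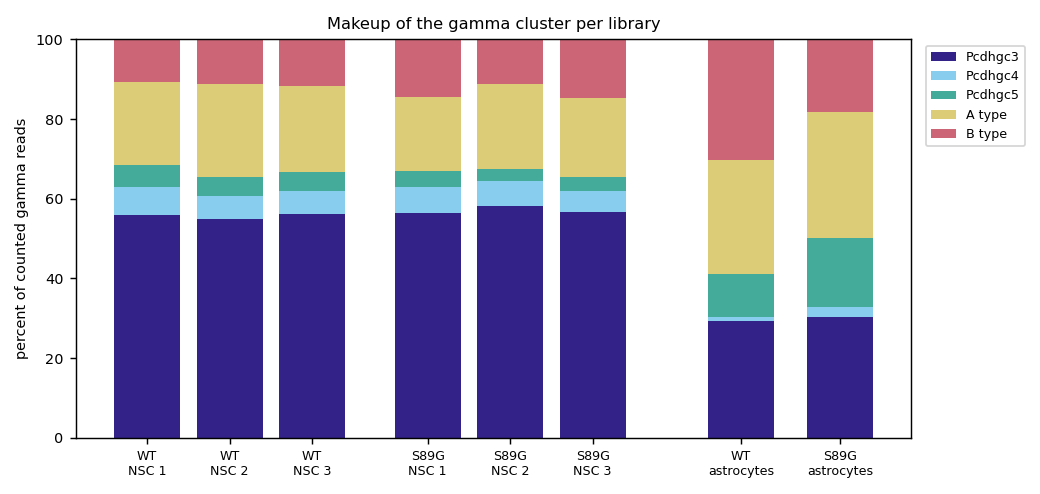
Percent of the counted gamma reads that fell on Pcdhgc3, Pcdhgc4, Pcdhgc5 and the summed A-type and B-type members, in each NSC and astrocyte library. Pcdhgc3 takes 54.9% to 58.2% in the NSC libraries and about 30% in both astrocyte libraries, where Pcdhgc5 takes 10.8% in WT and 17.5% in S89G-DMP1.

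In astrocytes, with 1 library per genotype and so no test, beta and gamma sums were higher and the alpha sum lower in S89G-DMP1. The beta sum was 93.2 CPM in S89G-DMP1 and 60.0 in WT, a log2 ratio of 0.64 (interval 0.51 to 0.77), which is opposite in sign to the NSC difference. The alpha sum was 5.49 against 9.48 CPM (-0.79, -1.22 to -0.37), and that of gamma 310 against 271 CPM (0.19, 0.13 to 0.26). Within gamma, A-type members gave 0.33 and B-type members -0.53. Scaling by library size without TMM factors moved the median of all genes from 0.01 to 0.30. The sums of alpha, beta and gamma then stood at -0.50, 0.93 and 0.49, and that of the alternate gamma members went from -0.05 to 0.24.

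Of the 57 members, 38 had at least 10 counts in either astrocyte library (5 alpha, 13 beta and 20 gamma). Ratios of 2-fold or more were found for 12 of these, 6 higher and 6 lower in S89G-DMP1, or 15.8% in each direction. Of all 15680 genes counted, 30.1% passed this fold, 17.3% as higher and 12.8% as lower. The median log2 ratio of the 38 was 0.14. The 6 higher members were Pcdhb13, Pcdhb14, Pcdhb18, Pcdhb20 and Pcdhb21 of the beta cluster and the C-type Pcdhgc4. The 6 lower members were the alpha members Pcdha1, Pcdha8 and Pcdha10, the beta members Pcdhb15 and Pcdhb16, and Pcdhgb4. These shares lie near those of all genes. Of the 12, Pcdha1, Pcdha8, Pcdha10, Pcdhb13 and Pcdhb15 had under 10 counts in the library where they were lower, so these 5 entered only through the other library, and 7 of 12 remained with 10 counts asked of both. Scaling by library size without TMM factors gave 12 higher and 5 lower.

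Toward the end of the beta cluster the S89G-DMP1 astrocyte library held more reads of most members. Pcdhb21 had 111 counts in S89G-DMP1 and 29 in WT (log2 ratio 1.69, interval 1.15 to 2.39), Pcdhb18 212 and 62 (1.56, 1.17 to 2.02), Pcdhb14 70 and 27 (1.14, 0.53 to 1.89), and Pcdhb20 113 and 48 (1.02, 0.55 to 1.57). Between them Pcdhb15 and Pcdhb16 went the other way, with 8 and 30 counts (-1.84, -3.43 to -0.93) and 49 and 116 counts (-1.39, -1.94 to -0.93). Pcdhb13 had 10 counts in S89G-DMP1 and 3 in WT, a log2 ratio of 1.13 whose interval (-0.41 to 4.05) included 0. Neighbouring single-exon genes thus differed in direction in this pair of libraries.

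As a sum, alternate alpha members were counted mainly in the WT astrocyte library, but Pcdha12 and Pcdha5 had similar counts in both libraries. Pcdha12 had 18 counts in WT and 15 in S89G-DMP1 (log2 ratio -0.40, interval -1.54 to 0.62), and Pcdha5 had 2 in each. Both were named here after their values were seen. Pcdha10, Pcdha1 and Pcdha8 entered the counted members only through the WT library, as stated above. Pcdha10 had 26 counts in WT and 4 in S89G-DMP1 (log2 ratio -2.37, interval -4.86 to -1.36). Pcdha1 had 11 and 2 counts (-1.83, -5.86 to -0.45). Pcdha8 had 11 and 0 counts, at least 4.17-fold lower in S89G-DMP1 when set against a floor of 3 counts in a library, while counting error on the log2 ratio reaches up to -1.51. Without Pcdhac2, the alpha sum was 87 counts in WT and 30 in S89G-DMP1 (-1.72, -2.37 to -1.11). Pcdhac2 itself had 33 and 49 counts (0.37, -0.28 to 1.07), an interval that includes 0. Fibroblast, meningeal and astrocyte markers, given above, moved with these differences, and their part in them was not tested.

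Of the gamma members in astrocytes, Pcdhgc4 had 107 counts in S89G-DMP1 and 34 in WT (log2 ratio 1.42, interval 0.90 to 2.07), and Pcdhgc5 780 and 369 (0.89, 0.71 to 1.08). Pcdhgc3 had 1356 and 1004 counts (0.25, 0.13 to 0.37), a ratio below the shift that the choice of scale made. Pcdhgb4 had 179 and 343 counts (-1.11, -1.39 to -0.86) and Pcdhgb2 206 and 286 (-0.65, -0.92 to -0.39). Pcdhga3 had 222 and 108 (0.84, 0.52 to 1.20) and Pcdhga2 220 and 111 (0.79, 0.47 to 1.14). Pcdhga7 (227 and 179), Pcdhga11 (32 and 32) and Pcdhgb6 (167 and 176) had intervals that included 0. The intervals of 9 gamma members lay above 0 and of 5 below, while the share of all counted genes with such intervals was not computed.

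The members called in NSCs stood as follows in astrocytes. Pcdhga1 had 89 counts in S89G-DMP1 and 52 in WT (log2 ratio 0.57, interval 0.08 to 1.11), the same sign as in NSCs, and Pcdhga12 had 62 and 83 (-0.59, -1.10 to -0.11), again the same sign. Pcdhgb7 had 33 and 53 counts (-0.83, -1.54 to -0.21), the opposite sign, as did Pcdhga3 and Pcdhgc5. Pcdhb11 had 6 and 1 counts and gave no ratio.

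Genes that act with the clusters were described from 6 lists. CTCF and cohesin bring the distant enhancers to the chosen promoters, and of the 11 genes tested in NSCs, 3 rose and none fell, where 7.08% of all tested genes rose and 8.76% fell, shares that stand beside the counts of the other lists too. Ctcf rose from 149 ± 11.1 to 174 ± 4.61 CPM (SD, n = 3, log2 fold change 0.23, adjusted p = 0.014), the cohesin subunit Rad21 from 438 ± 17.0 to 506 ± 20.97 CPM (0.21, 0.0036) and the subunit Stag1 from 94.6 ± 6.93 to 111 ± 3.43 CPM (0.23, 0.044). Of 15 genes for silencing of the clusters, 1 was called, the DNA methyltransferase Dnmt3a, which fell from 305 ± 10.3 to 251 ± 8.83 CPM (-0.28, 0.00036). Smchd1, which keeps clusters silent, had 149 ± 15.5 and 167 ± 4.12 CPM (adjusted p = 0.10). All of these changes were well under 2-fold.

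Among 12 non-clustered protocadherins, which lie elsewhere and have no shared constant exons, 9 were tested in NSCs. Pcdh17 rose by 0.39 on the log2 scale (adjusted p = 0.0021) and Pcdh10 by 0.23 (0.0050), while Pcdh15, of the tip links of hair cells, fell by 0.44 (0.014). At the cytoplasmic tails, Cyfip2 of the WAVE complex fell by 0.35 (0.0038), the kinase Prkca fell by 0.42 (0.0012) and its substrate Marcks rose by 0.26 (0.00010), 3 of 14 tested. Of 7 genes for proteolysis of the proteins, 1 was called, the gamma-secretase subunit Ncstn, which fell by 0.49 (1.6e-06). Of 8 tested extracellular and Wnt partners, 2 were called, the neuroligin Nlgn2, which fell by 0.21 (0.014), and the atypical cadherin Celsr2, which fell by 0.40 (3.7e-06). In all, 6 of 64 tested genes of these lists rose and 7 fell, near the 7.08% and 8.76% of all tested genes.

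In astrocytes 68 genes of these lists were counted, and in S89G-DMP1 15 of them were higher and 1 was lower by 2-fold or more, where 17.3% of all genes counted were higher and 12.8% lower. The largest were Pcdh10, with 2083 counts in S89G-DMP1 and 33 in WT (log2 ratio 5.72, interval 5.30 to 6.34), Celsr2 with 2514 and 57 (5.23, 4.90 to 5.68) and Celsr1 with 906 and 28 (4.74, 4.29 to 5.43). Pcdh7 was lower, with 1661 and 3677 counts (-1.33, -1.42 to -1.25), followed by Ptk2 (-0.89) and Pcdh1 (-0.66). No counted clustered member reached the ratios of Pcdh10, Celsr2 or Celsr1 in this pair of libraries.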

How the data were processed

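RNA sequencing of 6 NSC and 2 astrocyte libraries was used. The authors deposited raw counts per gene for both cell types, with TPM values for NSCs and FPKM values for astrocytes. The submitters' processing notes name HISAT2, StringTie, featureCounts and GRCm38 for NSCs, and TopHat2 2.0.9 and Bowtie2 2.0.6 for astrocytes, whose build and counter are not given in the sources used here. The deposited counts were analysed in R 4.3.3 with edgeR 4.0.16. NSC genes were filtered with filterByExpr at a minimum of 10 counts, scaled by TMM and compared between genotypes, with no other covariate, by the quasi-likelihood test, with p-values adjusted by Benjamini-Hochberg across the 11194 genes kept. For astrocytes log2 ratios were computed after TMM scaling and a prior count of 2 where either library had 10 counts, with exact binomial 95% intervals. Gene positions and exon overlap came from GENCODE M21 on GRCm38, whereas no member's sequence was used here. Limma 3.58.1 on TPM and DESeq2 1.42.0 were alternatives. On simulated NSC data, 90 of 99 tested genes changed by 1 on the log2 scale, 64 of 99 changed by 0.5 and 3 of 10997 unchanged genes were called. The changed genes were drawn from genes of all levels, so these shares need not hold for members with few counts.

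The members and lists were chosen with earlier results of these data known. Values are given for members called in NSCs, C-type members, the 8 highest levels per cell type, the 5 largest tested changes in NSCs and the 10 largest ratios in astrocytes, and for called or most changed genes of the lists (3 per direction in astrocytes). Others are said to be named after their values were seen. At this depth, members with few counts limit the NSC comparison, and 13 of the 57 had under 10 counts in total.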

Additional observations from a re-analysis of the deposited data

Results flagged for a closer look

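For 7 members all NSC libraries of S89G-DMP1 lay on one side of all WT libraries, while the single S89G-DMP1 astrocyte library lay on the other side of its WT library with a counting interval that leaves out 0. These differences between the cell types were not tested. In NSCs 14.8% of all tested genes lay above and 16.0% below in this way. The share of all genes that also had the other sign in astrocytes was not computed, here or for the list genes below. Among the members called in NSCs, Pcdhga3 had a log2 fold change of -0.82 in NSCs and a log2 ratio of 0.84 in astrocytes, Pcdhgb7 stood at 1.32 and -0.83, and Pcdhgc5 at -0.62 and 0.89. Among those not called, Pcdhb19 stood at -0.42 in NSCs and 0.79 in astrocytes, Pcdhb21 at -0.55 and 1.69, and Pcdhb22 at -0.37 and 0.98. Pcdhga8, whose NSC value comes from the fit with no filter, stood at 1.98 and -0.76. The sums over members gave 0.35 in NSCs and -0.79 in astrocytes for alpha, -0.43 and 0.64 for beta, and -0.26 and 0.33 for the A-type gamma members.

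Of the list genes called in NSCs, 4 met the same description. Dnmt3a had -0.28 in NSCs and 1.85 in astrocytes, Cyfip2 -0.35 and 0.62, Prkca -0.42 and 1.10, and Celsr2 -0.40 and 5.23. With 1 astrocyte library per genotype, which also differed in sex-linked genes and in fibroblast and astrocyte markers, no replicate error exists for the astrocyte value of each pair.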

How the results depend on the processing

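The 8 NSC calls were the same 8 genes under RLE factors, upper-quartile factors and library size alone. DESeq2 called 2 (Pcdhga3 and Pcdhga12, both lower, with no adjusted p for 25 of 53 members), a minimum of 10 counts in every library 5 of 25 tested, and no filter 10. The minimum of 10 in every library left out Pcdhb11, Pcdhga1 and Pcdhgb7. With no filter the call of Pcdhac2 was lost (edgeR adjusted p = 0.0503) and Pcdhb4, Pcdhb7 and Pcdhga8 were gained. Limma on log2(TPM + 1) or log2(TPM + 0.1) called 0 of 30 with 5 at an unadjusted p under 0.05, against 13 in edgeR. Leaving out 1 library gave 7 to 10 calls. The replicate numbers did not pair the libraries (correlations of same-numbered deviations 0.029, -0.0088 and -0.016), and with the replicate number as a block 8 members and 14 list genes were called. For the partner lists (13 called), DESeq2 gave 5, each TPM scale gave 1, and leaving out 1 library gave 9 to 15. With deposited TPM the NSC beta sum moved from -0.43 to -0.12 and the alternate gamma sum to -0.28, and Pcdhgc3 took 73.0% of gamma in WT and 74.5% in S89G-DMP1, an alternative chosen after seeing the data. The cause was not tested. Uncalled NSC changes of the opposite sign on TPM (pseudocounts 1 and 0.1) were 0.80 and 1.82 for Pcdhb18, 0.68 and 1.69 for Pcdhb20, 0.71 and 1.70 for Pcdhb21, 0.0039 and 0.0028 for Pcdhgb2, -0.50 and -0.54 for Pcdhga7, 0.23 and 0.25 for Pcdhga11, and 0.18 and 0.19 for Pcdhgc4. Without 1 library the changes ran from -0.30 to 0.00032 for Pcdhb18, from -0.20 to 0.25 for Pcdhga2 (-0.20 without S89G-DMP1 replicate 3, -0.12 without WT replicate 2) and from -0.25 to 0.22 for Pcdhga11 (0.22 without S89G-DMP1 replicate 3, 0.032 and 0.20 without WT replicates 2 and 3). In astrocytes, library size alone and deposited FPKM gave -0.50 and -0.55 for alpha (main -0.79), 0.93 and 0.87 for beta, 0.49 and 0.52 for gamma, 0.55 and 0.57 for all members (main 0.26), and 0.24 and 0.21 for alternate gamma. Members past 2-fold (12) numbered 2 on log2(FPKM + 1) and 7 under a minimum of 50 counts in 1 library, as under one of 10 in both, but 17 by library size alone, 15 on log2(FPKM + 0.1), 18 of 52 with no filter and 12 with a prior count of 0.5.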

Other observations

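Pcdhga10, which the counts cannot show because it has no exon base of its own, has deposited TPM values in the NSC libraries. They were 19.3, 12.3 and 10.5 TPM in WT and 2.13, 0.117 and 0 TPM in S89G-DMP1, so all 3 WT libraries lay above all 3 S89G-DMP1 libraries. These values assign shared reads to transcripts by estimate, and the same files list Pcdhb22 at 0 TPM in all 3 WT libraries, where it had 50 to 52 counts. No test was made of this member, and it was chosen after its values were seen.

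The pseudogene Pcdhgb8 had 2 counts in 1 NSC library and 0 in the other 5, against 21 counts in the S89G-DMP1 and 42 in the WT astrocyte library. Taf7, a general transcription factor gene that lies between the beta and gamma clusters, had 29, 29 and 26 counts in WT and 30, 27 and 36 counts in S89G-DMP1 NSC libraries (log2 fold change 0.19 ± 0.21, SE, adjusted p = 0.61). Its groups overlapped, unlike those of the summed beta counts beside it.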
